A study of Mus musculus with 46 samples.

Results

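Regional gene expression was compared between the right striatum and the right cerebral cortex of 8 wild-type (WT) mice. The comparison used every WT vehicle library of the deposited count table, 8 striatal and 8 cortical, which is 16 of the 46 libraries of the series. The animal code in each library's label ties the libraries into 8 pairs from 1 mouse each. All 8 were C57BL6/J mice, 4 females and 4 males, dosed orally with vehicle from 4 to 12 weeks of age and killed at 12 weeks. They served as controls for R6/2 mice, a Huntington's disease model, given vehicle or a kynurenine 3-monooxygenase inhibitor. The compound was given to no WT mouse, so the values below are those of vehicle-dosed and not of undosed mice.

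The striatum is the input station of the basal ganglia. Most of its neurons are inhibitory spiny projection neurons, which receive glutamate from the cortex and thalamus and dopamine from the midbrain. Those of the direct pathway carry the dopamine receptor Drd1 and the peptides substance P and dynorphin, and those of the indirect pathway carry Drd2, the adenosine receptor Adora2a and enkephalin. The cortex is built of layers of excitatory, glutamatergic projection neurons that arise from the pallium of the embryonic forebrain, with inhibitory interneurons among them that arise, like striatal neurons, from the subpallium.

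The 8 striatal libraries held 30475559 to 35115556 counts and the cortical ones 32714352 to 37036397. The libraries fitted their tissue labels. Drd2 was at least 134 CPM (the count per 1000000 counts of a library, TMM-scaled) in all striatal libraries, while no cortical one was above 3.29 CPM. Slc17a7, the vesicular glutamate transporter of cortical projection neurons, was at least 1118 CPM in every cortical library and at most 61.8 CPM in every striatal one. Sex-linked genes matched the labelled sex in 16 of 16 libraries. Striatal library 1, from a male, stood apart from the other 7: its 20 highest genes held 13% of its counts against 10.7% at most elsewhere in the striatum, and 8 nuclear copies of mitochondrial sequence held 9.29% against 6.78% at most. The WT striatal libraries carry the tags L1 to L4 in their labels and the WT cortical ones L7 and L8. The labels do not say what the tag stands for, and a difference between tags and a difference between tissues cannot be told apart in WT mice.

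Of 17051 genes tested, 10708 (62.8%) differed between the tissues at an adjusted p under 0.05. The 5316 genes higher in the striatum made up 31.2% of those tested and the 5392 higher in the cortex 31.6%. Of the genes called, 24.5% differed by less than 1.2-fold. The median absolute log2 difference of all genes tested was 0.279, with a median standard error (SE) of 0.069. Leaving out the animal of striatal library 1 raised the count to 11409 genes. At 2-fold or more, 1038 genes (6.09%) were higher in the striatum and 1216 (7.13%) in the cortex. The values of the 8 striatal and 8 cortical libraries did not overlap in 865 and 1076 of these genes, which is 83.3% and 88.5%. Over all 17051 genes tested, they did not overlap in 2411 genes higher in the striatum and 2836 higher in the cortex. The choice of genes called at 2-fold fixes the higher share in part. At 4-fold or more 341 and 400 genes were called, and at 16-fold or more 94 and 98. All log2 differences below are striatum minus cortex ± SE from edgeR's quasi-likelihood test with the animal as a block, and levels are in CPM, as the range of 8 libraries or as mean ± SD (n = 8).

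**Figure D1:**
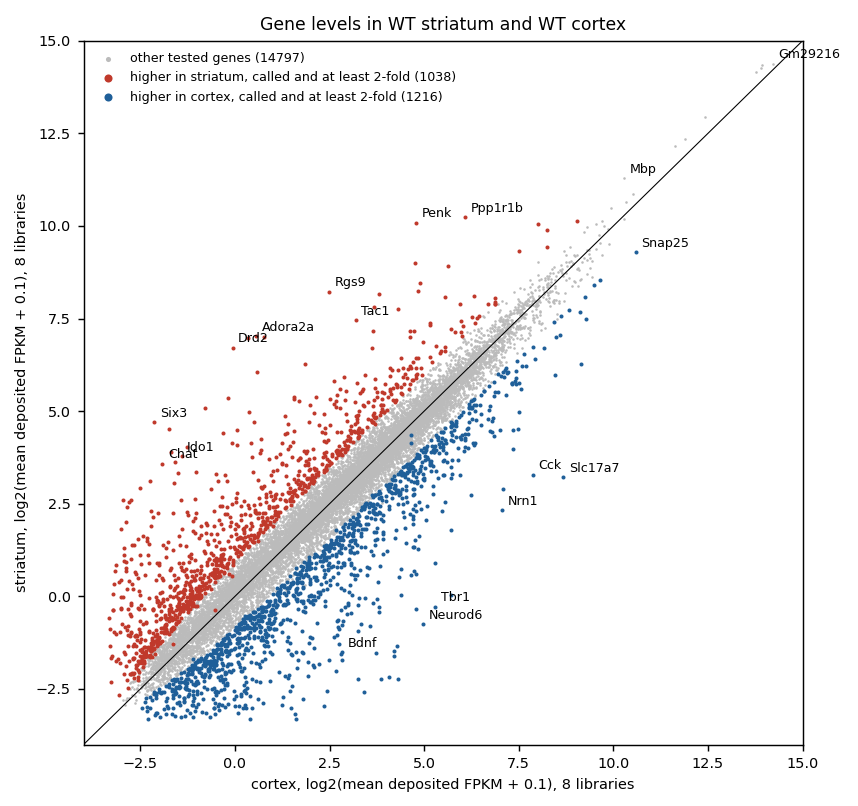
Mean deposited FPKM of each tested gene in WT cortex (x axis) and WT striatum (y axis), both as log2(FPKM + 0.1), 8 libraries each. Red points are the 1038 genes higher in the striatum and blue points the 1216 higher in the cortex at an adjusted p under 0.05 and at least 2-fold, and the line marks equal levels. Drd2, Six3 and Rgs9 lie far above the line, and Slc17a7 and Neurod6 far below it.

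The largest differences were in genes close to silent in 1 of the tissues, and many of them encode transcription factors or receptors. The 12 largest in each direction were taken among called genes with at least 10 CPM in the higher tissue and the same sign in all 8 animals. Six3, a homeodomain transcription factor at chr17:85613608-85629302 (mm10, GENCODE vM21), led the striatal side. It ran from 53.8 to 79.8 CPM (median 69) in the striatum and 0.0819 to 0.996 CPM (median 0.186) in the cortex (log2 7.63 ± 0.27, adjusted p = 3.2e-10). The antisense partner Six3os1 (6.52 ± 0.23) overlaps it, and because it is not known whether the libraries kept strand, reads of the pair cannot be told apart. Lhx8, a LIM-homeodomain factor of cholinergic neurons, differed by 7.44 ± 0.30. Its cortical libraries held 0 to 0.244 CPM (median 0.0288), values that rest on a few counts. Drd2, Slc10a4 (a vesicular protein of cholinergic and monoaminergic neurons), the LIM-homeodomain factor Isl1, Adora2a and the membrane protein gene Syndig1l followed, with Ptpn7, a tyrosine phosphatase best known from blood cells, the serpin Serpina9 and the leucine-rich repeat gene Lrrc10b. Their log2 differences lay between 6.32 ± 0.18 and 6.98 ± 0.29.

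On the cortical side the homeodomain transcription factor Emx1, which patterns the embryonic cortex, ran from 11.5 to 20.1 CPM (median 12.6) in the cortex and 0.0565 to 0.243 CPM (median 0.161) in the striatum (log2 -6.38 ± 0.15, adjusted p = 1.3e-11). Other pallial transcription factors among the 12 were Neurod2 (-6.05 ± 0.24), Neurod6 (-6.04 ± 0.22) and Tbr1 (-5.84 ± 0.18). Slc30a3, the transporter that loads zinc into glutamatergic vesicles, ran from 86.1 to 131 CPM (median 107) in the cortex and 0.598 to 6.17 CPM (median 0.923) in the striatum (-5.98 ± 0.37). Others were Gm11549 (-7.49 ± 0.15), the immunoglobulin and fibronectin domain gene Igfn1 (-7.35 ± 0.34), the serpin Serpinb8, Dkkl1 of the dickkopf family and Trbc2, a constant region of the T cell receptor, which was at 6.77 to 14.7 CPM (median 13.8) in the cortex. In all 24 genes the striatal and cortical ranges did not overlap, which the choice of the largest differences fixes in part.

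**Figure D2:**
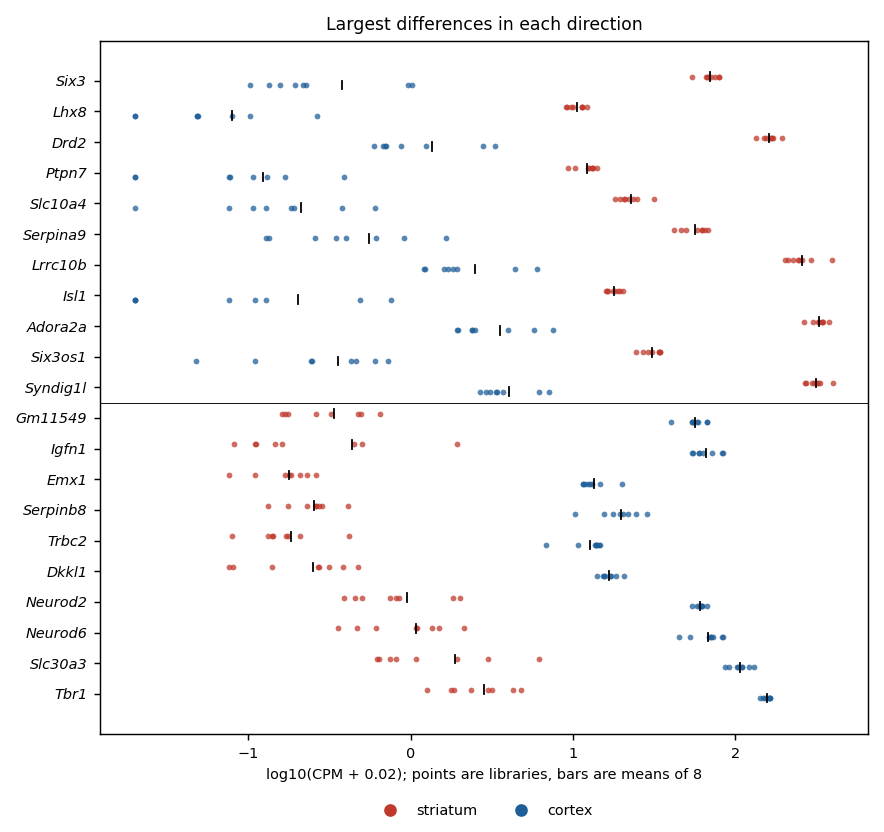
CPM of each library, as log10(CPM + 0.02), for the genes named in the text among the 12 with the largest log2 difference in each direction, striatum in red and cortex in blue, with bars at the mean of 8 libraries. In every gene all 8 points of the higher tissue lie to the right of all 8 of the lower one, and several genes have cortical points at 0 counts, drawn at the left edge.

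Promoters are shown for 3 of these genes, a striatal receptor and a pair of cortical factors, as examples of the sequence at the start of strongly regional genes. Each is 300 bases, from 250 before to 50 after a RefSeq start site on GRCm38.p6, and 17 of the 24 genes had such a window. Capitals mark the GC box GGGCGG or its reverse complement CCGCCC in Drd2 (chr9:49340153-49340452, plus strand) and Emx1 (chr6:85187681-85187980, plus strand), and the homeodomain core TAATTA, which reads the same on both strands, in Tbr1 (chr2:61804203-61804502, plus strand).
Drd2: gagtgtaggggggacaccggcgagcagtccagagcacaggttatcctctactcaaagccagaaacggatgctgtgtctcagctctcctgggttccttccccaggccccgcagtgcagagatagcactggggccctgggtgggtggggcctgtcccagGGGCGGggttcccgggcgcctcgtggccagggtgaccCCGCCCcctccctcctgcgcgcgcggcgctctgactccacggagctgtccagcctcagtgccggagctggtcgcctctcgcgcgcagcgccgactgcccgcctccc
Emx1: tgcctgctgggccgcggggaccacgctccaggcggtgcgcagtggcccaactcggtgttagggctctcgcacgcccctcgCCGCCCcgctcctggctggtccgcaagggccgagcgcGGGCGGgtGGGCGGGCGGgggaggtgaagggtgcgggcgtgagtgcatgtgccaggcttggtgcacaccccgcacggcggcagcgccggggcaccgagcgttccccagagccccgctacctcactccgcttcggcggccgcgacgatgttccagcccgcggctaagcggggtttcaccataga
Tbr1: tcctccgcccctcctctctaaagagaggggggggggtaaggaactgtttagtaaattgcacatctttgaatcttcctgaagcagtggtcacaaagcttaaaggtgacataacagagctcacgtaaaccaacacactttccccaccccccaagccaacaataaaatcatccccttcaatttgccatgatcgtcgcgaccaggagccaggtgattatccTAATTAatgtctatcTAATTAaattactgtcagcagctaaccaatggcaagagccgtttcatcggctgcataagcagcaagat
The GC box occurred 1 time in the Tbr1 window, where it is not in capitals, 2 times in the Drd2 window and 4 times in that of Emx1, where a pair of matches overlap. It was in 58.9% of the 15663 windows of tested genes, in 47.7% of the 916 windows of genes called at 2-fold and higher in the striatum and in 47.6% of the 1102 of those higher in the cortex. The TAATTA core occurred 2 times in the Tbr1 window, and in 2.87%, 3.49% and 4.26% of the same 3 groups of windows. Of the other motifs searched on both strands, the E-box CAGCTG was in 16.2%, 21.6% and 19.6%, and the E-box CAGATG in 12.4%, 15.1% and 16.1%. The TATA box TATAAA was in 7.51%, 10.5% and 10.6%. The cyclic AMP response element TGACGTCA was in 2.79%, 1.31% and 2.45%. A match of letters is a description and shows no binding.

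Genes of spiny projection neurons were higher in the striatum almost without exception. Ppp1r1b, which encodes DARPP-32, the phosphatase inhibitor that dopamine signalling switches through kinase A, was 1450 to 2065 CPM (median 1701) in the striatum and 82.9 to 129 CPM (median 92) in the cortex (log2 4.15 ± 0.09, adjusted p = 9.88e-12). By length it was among the highest messenger RNAs of the striatum, at 1205 ± 113 deposited FPKM against 67.9 ± 10.6 in the cortex. Of the 24 listed genes of projection neuron signalling, 23 were higher in the striatum and 0 in the cortex (median log2 difference 2.91, against 0.007 over all genes tested). Rgs9, an accelerator of G protein shut-off, was 661 ± 50.5 CPM in the striatum, 55.1-fold the cortical level (5.78 ± 0.20). The phosphodiesterase gene Pde10a (4.22 ± 0.12), the G protein subunit gene Gng7 (4.19 ± 0.08) and the Ras exchange factor gene Rasgrp2 (3.83 ± 0.08) were higher in the striatum in every animal. The exception was Prkcb, a kinase C gene, at 541 ± 60.2 CPM in the striatum and 491 ± 50.2 CPM in the cortex (log2 0.14 ± 0.08, adjusted p = 0.14), which passed without the animal of striatal library 1 (0.21, adjusted p = 0.00872). Counts of list members are to be read against the share of all tested genes with such a call, 31.2% toward the striatum and 31.6% toward the cortex. In bulk tissue, fewer cells of a type and less RNA per cell cannot be told apart.

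Both output pathways were represented. Drd1 was 229 to 288 CPM (median 274) in the striatum and 10.7 to 16.5 CPM (median 11.4) in the cortex (log2 4.45 ± 0.11, adjusted p = 1.99e-11), and Tac1, the precursor of substance P, was 142 to 217 CPM (median 180.0) in the striatum and 7.38 to 13.6 CPM (median 8.82) in the cortex (4.28 ± 0.14). The ranges of both genes were far apart. In the direct pathway list 6 of 7 genes were higher in the striatum, among them the nucleotide sugar transporter gene Slc35d3 (5.66 ± 0.17) and the dynorphin precursor Pdyn (2.17 ± 0.08), and 1 was higher in the cortex. In the indirect pathway list all 6 tested genes were higher in the striatum, with a median of 6.15 against 4.27 in the direct list. Penk, the enkephalin precursor, was 1179 to 1638 CPM (median 1348) in the striatum and 24.2 to 69.6 CPM (median 31.8) in the cortex (log2 5.32 ± 0.18, adjusted p = 2.51e-10). Adora2a was 264 to 375 CPM (median 334) in the striatum and 1.92 to 7.47 CPM (median 2.42) in the cortex (log2 6.62 ± 0.25, adjusted p = 5.1e-10), and the orphan receptor gene Gpr6 differed by 5.69 ± 0.20. Pdyn was also measured in the cortex, at 24.6 ± 1.86 CPM.

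Transcription factors were counted as a subpallial and a pallial list, and most members of each were higher in the tissue of that origin. Of 24 tested factors of the subpallial list, 18 were higher in the striatum and 4 in the cortex (median 2.41). Rarb and Rxrg, receptors for retinoids, were at 126 ± 11.1 CPM and 137 ± 24.8 CPM in the striatum (3.85 ± 0.09 and 5.61 ± 0.20). Ikzf2 (0.17 ± 0.08) and Dlx2 (0.11 ± 0.08) were not called. Dlx2 marks migrating inhibitory neuroblasts as well as mature interneurons, and its level was low in both tissues (4.57 ± 0.313 CPM in the striatum and 4.26 ± 0.537 CPM in the cortex). Of the 25 pallial factors, 21 were higher in the cortex and 3 in the striatum (median -1.91). Tbr1, a T-box factor of early-born and layer 6 neurons, was 141 to 163 CPM (median 159) in the cortex and 1.24 to 4.79 CPM (median 2.65) in the striatum (log2 -5.84 ± 0.18, adjusted p = 1.12e-10). Etv1, a marker of layer 5, was not called (-0.07 ± 0.08).

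Genes that mark cortical layers did not all mark the cortex against the striatum. Of the 13 genes of layers 2 to 4, 10 were higher in the cortex and 3 in the striatum (median -1.26). Cux2, a homeodomain factor of upper layers, differed by -2.65 ± 0.14, the layer 4 receptor gene Rorb by -1.45 ± 0.07 and the exchange factor gene Rasgrf2 by -2.48 ± 0.10. Wfs1, whose product sits in the endoplasmic reticulum, was higher in the striatum (1.26 ± 0.10). For layers 5 and 6, 11 of 20 genes were higher in the cortex, 4 in the striatum and 5 in neither. The median log2 difference of these 20 was -0.5. Their summed level, on which the most abundant genes weigh most, was nonetheless higher in the striatum, at 1299 to 1539 CPM against 916 to 1056 CPM in the cortex. Fezf2, which specifies corticospinal neurons, was 22.5 ± 4.91 CPM in the cortex and 1.99 ± 0.381 CPM in the striatum (-3.48 ± 0.14). Syt6, a synaptotagmin of layer 6 neurons, was higher in the striatum, at 170.0 ± 18.7 CPM in the striatum and 24.3 ± 2.6 CPM in the cortex (2.81 ± 0.07). Deptor (0.00 ± 0.08) and Nxph4 (0.06 ± 0.17) were not called.

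**Figure D3:**
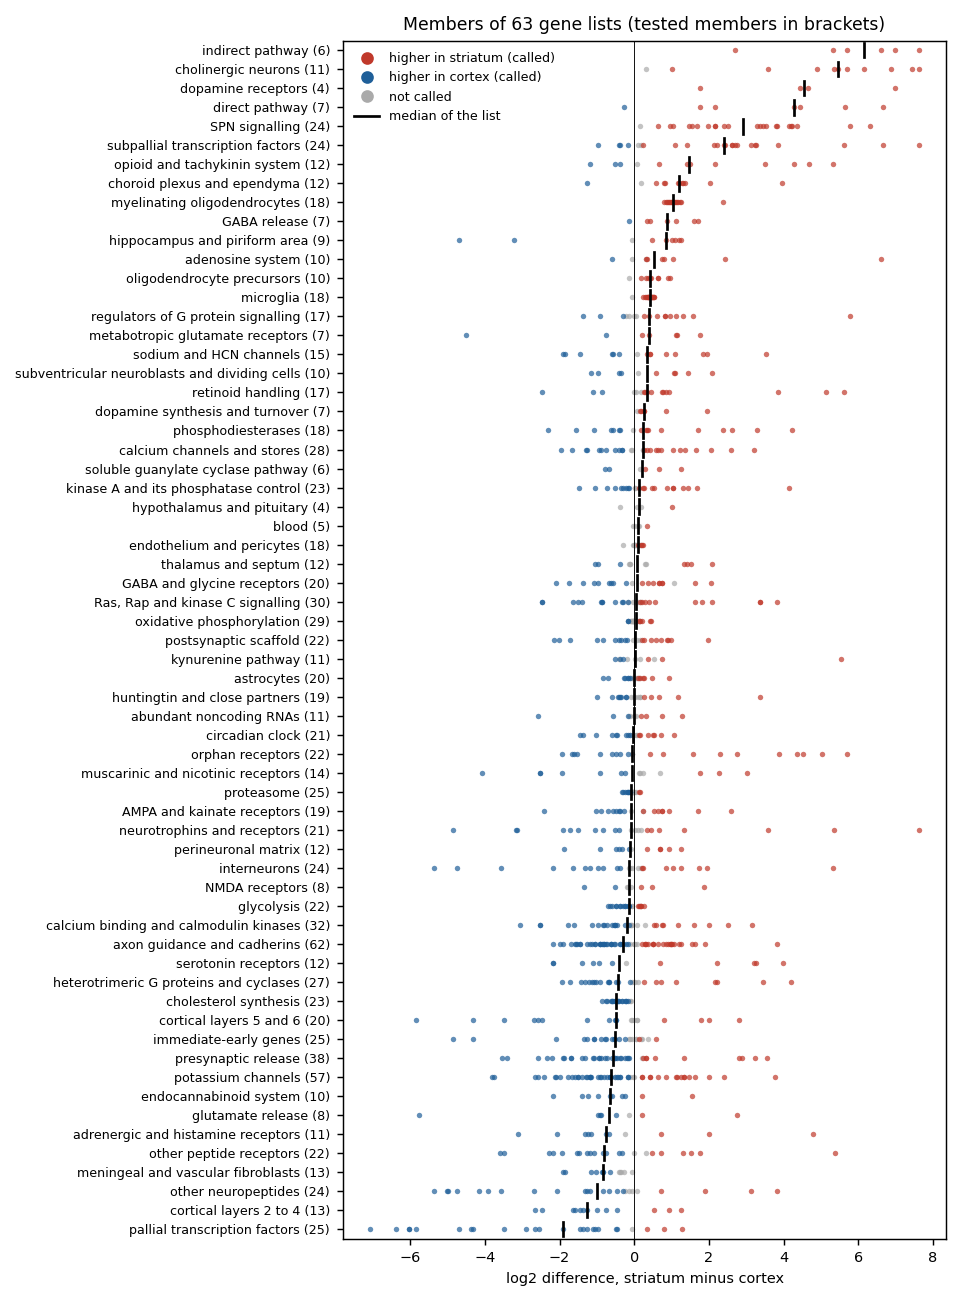
Log2 difference, striatum minus cortex (x axis), of each tested member of the 63 gene lists (y axis, number tested in brackets), ordered by the median of the list, drawn as a black bar. Red members were higher in the striatum and blue ones in the cortex at an adjusted p under 0.05, and grey members were not called. The indirect pathway list has the highest median (6.15) and the pallial transcription factors the lowest (-1.91).

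Genes of transmitter handling were counted as a glutamate and a GABA list. In the glutamate list 5 of 8 genes were higher in the cortex and 2 in the striatum. Slc17a7 was 1118 to 1347 CPM (median 1212) in the cortex and 6.75 to 61.8 CPM (median 18) in the striatum (log2 -5.78 ± 0.36, adjusted p = 3.83e-08). Its striatal values were spread widely between animals but lay far below all cortical ones. Slc17a8, the vesicular glutamate transporter also found in cholinergic neurons, was higher in the striatum, at 23 ± 2.82 CPM in the striatum and 3.41 ± 0.411 CPM in the cortex (2.74 ± 0.10). Slc17a6, the form of thalamic neurons, was 3.65 to 55.5 CPM (median 11.9) in the striatum and 25 to 32.4 CPM (median 27.1) in the cortex, and the ranges overlapped (log2 -0.97 ± 0.31, adjusted p = 0.0155). Without the animal block the call was lost (-0.71, adjusted p = 0.096). In the GABA list 6 of 7 genes were higher in the striatum. The vesicular GABA transporter gene Slc32a1 differed by 1.72 ± 0.06, the GABA synthesis gene Gad2 by 1.60 ± 0.06 and its partner Gad1 by 0.87 ± 0.07.

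Cholinergic genes formed 1 of the most one-sided groups. Chat, the enzyme that makes acetylcholine, was 29.9 to 37 CPM (median 33.2) in the striatum and 0.246 to 0.915 CPM (median 0.368) in the cortex (log2 6.15 ± 0.14, adjusted p = 1.44e-11). Of 11 tested genes 10 were higher in the striatum and 0 in the cortex (median 5.46), and the neurotrophin receptor gene Ngfr was among them (3.59 ± 0.16). Zic4, a gene of the septum and other cholinergic areas, was not called (0.32 ± 0.22). Acetylcholine receptors divided instead: 3 of 14 were higher in the striatum and 7 in the cortex. Chrm3 (-2.54 ± 0.09) and the nicotinic subunit gene Chrnb3 (-4.08 ± 0.30) were higher in the cortex, and Chrm5, at 0.647 ± 0.161 CPM, in the striatum (3.02 ± 0.34). The nicotinic subunit genes Chrnb2 (0.13 ± 0.06) and Chrna7 (0.16 ± 0.13) were not called. Both passed without the animal of striatal library 1, at 0.18 (adjusted p = 0.00187) and 0.29 (adjusted p = 0.0051).

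Interneuron markers differed by subtype. Vip, a peptide of interneurons that inhibit other interneurons, was 30.3 to 47.5 CPM (median 44.2) in the cortex and 0.707 to 1.9 CPM (median 0.893) in the striatum (log2 -5.36 ± 0.14, adjusted p = 2.47e-11). Cck, made by cortical projection neurons as well as by interneurons, was 149 to 183 CPM (median 160.0) in the cortex and 3.33 to 14.7 CPM (median 5.5) in the striatum (log2 -4.74 ± 0.24, adjusted p = 5.35e-09). The striatal values of both lay far below all cortical ones. Sst, the somatostatin gene, was at nearly the same level in both tissues, 103 ± 16.2 CPM in the striatum and 107 ± 12.4 CPM in the cortex (log2 -0.06 ± 0.07, adjusted p = 0.439). Pvalb, of fast-spiking interneurons, was 26.2 to 70.1 CPM (median 61.6) in the striatum and 60.8 to 79.7 CPM (median 73) in the cortex. Its ranges overlapped, and it was higher in the cortex (log2 -0.47 ± 0.17, adjusted p = 0.0331), a call lost without the animal of striatal library 1, 3, 5 or 7 (-0.49 to -0.32, adjusted p of 0.0515 to 0.0742). Nkx2-1, a factor that striatal interneurons of ventral origin keep into adulthood and cortical ones lose, was 5.35 to 9.96 CPM (median 6.39) in the striatum and 0.0584 to 0.36 CPM (median 0.113) in the cortex (5.33 ± 0.23). Nos1, neuronal nitric oxide synthase, differed by 1.25 ± 0.08. In all 8 of 24 listed genes were higher in the striatum, 11 in the cortex and 5 in neither, and Calb2 (-0.11 ± 0.22) and Kit (0.10 ± 0.05) were among the last. Kit passed without the animal of striatal library 5 (0.16, adjusted p = 0.00334).

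Dopamine receptors were striatal. All 4 tested receptors were higher there (median 4.55), but their levels were far apart: Drd3 was at 0.983 ± 0.377 CPM and Drd5 at 3.51 ± 0.708 CPM in the striatum (4.65 ± 0.38 and 1.76 ± 0.20), against 271 ± 19.5 CPM for Drd1. CPM are not scaled to length, and per length, in mean deposited FPKM, the striatal order was Drd2 (105 ± 10.4), Drd1 (77.4 ± 5.31), Drd5 (1.26 ± 0.251) and Drd3 (0.683 ± 0.265). Dopamine itself reaches the striatum in axons whose cell bodies lie in the midbrain. Th, the enzyme that makes its precursor, was higher in the striatum, at 4.89 to 7.98 CPM (median 6.33) in the striatum and 1.24 to 2.17 CPM (median 1.64) in the cortex (log2 1.95 ± 0.10, adjusted p = 8.06e-09). Slc6a3, the dopamine transporter, was below the filter, at 0.362 CPM at most in any library. Of the 7 tested genes of synthesis and turnover 6 were higher in the striatum, by 0.84 ± 0.06 for the decarboxylase gene Ddc, 0.27 ± 0.07 for the vesicular transporter gene Slc18a2 and 0.25 ± 0.07 for the oxidase gene Maob. In the 4 females alone Slc18a2 (0.23, adjusted p = 0.0767) and Maob (0.18, adjusted p = 0.111) were not called, nor was Slc18a2 in the 4 males (0.32, adjusted p = 0.0543).

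Members of the chain from dopamine and adenosine receptors through cyclic AMP differed between the tissues in their share of a family. To compare members of 1 family, each member's share of the family's summed deposited FPKM, which is scaled to length, was taken per library. The 28 families were picked after their values had been seen, so these shares are a description. The highest member differed between the tissues in 17 families and was the same in 11. Adenylyl cyclase, which makes cyclic AMP, was 71.3% ± 3.41 Adcy5 in the striatum and 48.4% ± 3.3 Adcy1 in the cortex, where Adcy5 held 9.19% ± 1.2. Among 5 G protein gamma subunits Gng7 held 84.4% ± 1.68 in the striatum and 11.5% ± 1.57 in the cortex, where Gng3 led with 38.3% ± 1.05. Gnal, the stimulatory subunit coupled to dopamine and adenosine receptors in the striatum, held 32.5% ± 3.73 against 4.73% ± 0.613, the rest being Gnas, which led in both tissues. Of the R7 group of RGS proteins Rgs9 held 82.7% ± 1.7 against 5.55% ± 2.44, and Rgs7 led in the cortex with 43.4% ± 4.2. These leaders held in all 8 libraries of a tissue except Rgs7, which led in 7.

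**Figure D4:**
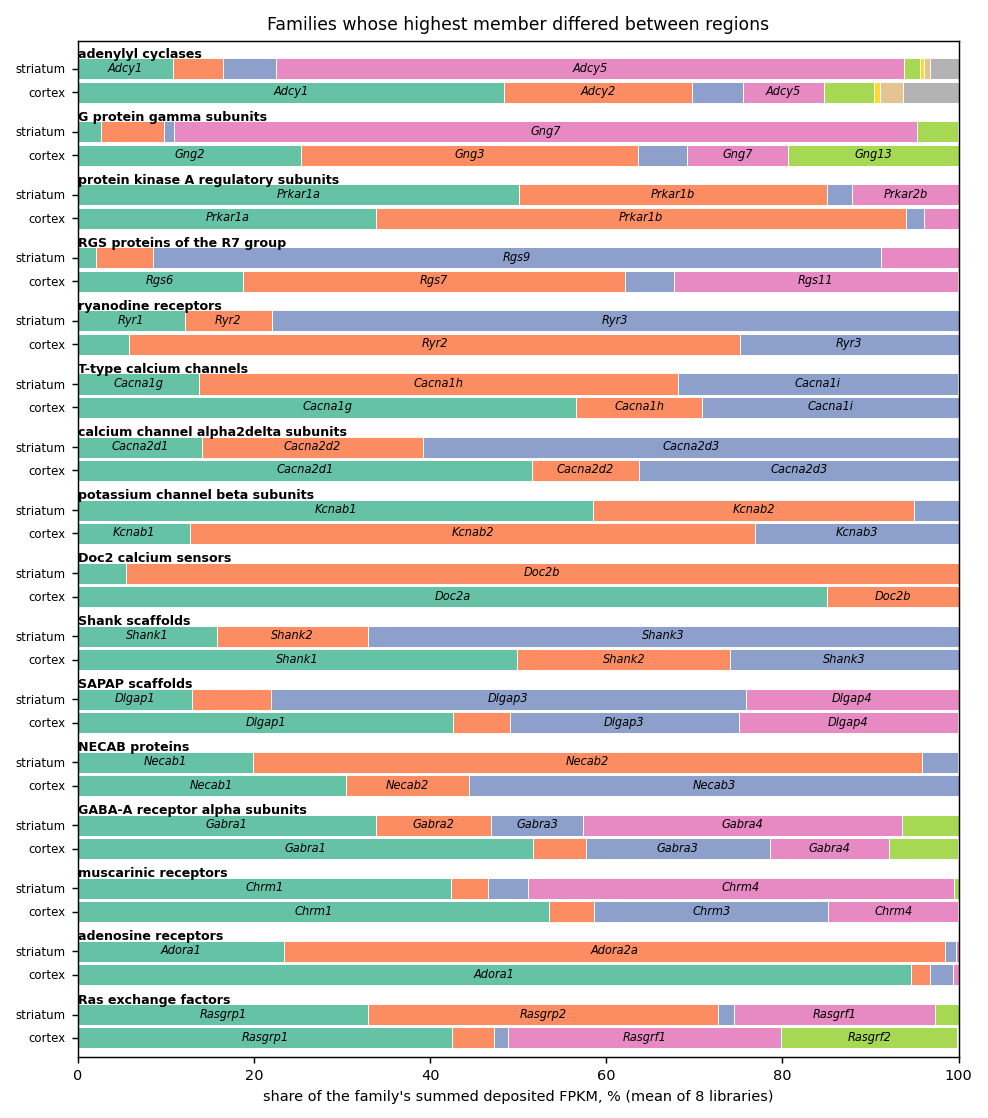
Share of each member in the summed deposited FPKM of its family (x axis, %, mean of 8 libraries), in striatum and cortex, for 16 of the 17 families whose highest member differed. Members above 9% are named. Adcy5 fills 71.3% of the adenylyl cyclase bar in the striatum and 9.19% in the cortex.

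As lists, these genes were less one-sided than the families' leaders. Of the 27 heterotrimeric G proteins and cyclases, 8 were higher in the striatum and 15 in the cortex (median -0.43). Adcy5 was 1268 to 1638 CPM (median 1542) in the striatum and 125 to 171 CPM (median 134) in the cortex (log2 3.45 ± 0.06, adjusted p = 2.94e-12) and Gng7 1473 to 1870 CPM (median 1644) in the striatum and 75.3 to 126 CPM (median 87.5) in the cortex (log2 4.19 ± 0.08, adjusted p = 5.85e-12). Both stood apart in every library, while Adcy7 (0.00 ± 0.07) and the inhibitory subunit gene Gnai3 (0.02 ± 0.04) were not called. Phosphodiesterases, which break cyclic nucleotides down, were higher in the striatum in 10 of 18 cases and in the cortex in 7. Pde10a was 1285 to 2051 CPM (median 1772) in the striatum and 62.2 to 116 CPM (median 92.9) in the cortex (log2 4.22 ± 0.12, adjusted p = 3.98e-11), and Pde1b, which calcium activates, was 1194 to 1574 CPM (median 1454) in the striatum and 134 to 163 CPM (median 145) in the cortex (log2 3.29 ± 0.07, adjusted p = 7.76e-12). Pde7b (2.39 ± 0.10) and Pde1c (2.63 ± 0.06) were also higher in the striatum, and Pde3b was not called (-0.04 ± 0.05). Together Pde1b and Pde10a held 51.3% ± 2.9 and 23.7% ± 2.03 of the FPKM of 17 phosphodiesterases in the striatum, and 18.1% ± 1.39 and 4.65% ± 1.01 in the cortex. Pde1b was the highest of these 17 in all 8 striatal and in 5 of 8 cortical libraries. Pde2a, also on the list, was not analysed here, so these shares and ranks leave it out.

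Downstream of cyclic AMP, the kinase A list had 12 of 23 genes higher in the striatum and 9 in the cortex (median 0.12). Arpp21, a kinase A substrate, was at 1483 ± 90 CPM in the striatum and 461 ± 39.3 CPM in the cortex (1.69 ± 0.06), and the anchoring protein gene Akap9 differed by 1.44 ± 0.06. The regulatory subunit gene Prkar1b was higher in the cortex (-1.49 ± 0.04) and made up 60.1% ± 1.51 of the regulatory subunits there, while Prkar1a led in the striatum with 50.1% ± 1.02. The catalytic phosphatase gene Ppp1cb was not called (0.01 ± 0.04). Regulators of G protein signalling were higher in the striatum in 10 of 17 genes, among them Rgs8 (1.58 ± 0.03) and Rgs2 (1.31 ± 0.06), and in the cortex in 3, among them Rgs6 (-1.38 ± 0.09). In the nitric oxide and cyclic GMP pathway 3 of 6 genes were higher in the striatum. Gucy1a1, a subunit of the cyclase that nitric oxide activates, differed by 0.67 ± 0.06, and the cyclic GMP kinase genes Prkg1 (-0.69 ± 0.15) and Prkg2 (-0.79 ± 0.09) were higher in the cortex.

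Neuropeptides split into an opioid and tachykinin group higher in the striatum and a larger mixed group higher in the cortex. In the opioid and tachykinin system 8 of 12 genes were higher in the striatum and 3 in the cortex (median 1.46). The substance P receptor gene Tacr1 was at 50.3 ± 4.45 CPM in the striatum and 1.98 ± 0.525 CPM in the cortex (log2 4.68 ± 0.10, adjusted p = 7.39e-12) and Tacr3 at 11.2 ± 1.44 CPM in the striatum and 0.991 ± 0.296 CPM in the cortex (3.51 ± 0.15). Of the 24 other peptides and secreted synaptic proteins, 4 were higher in the striatum and 16 in the cortex (median -1.01). Nrn1, the activity-regulated neuritin gene, was 197 to 239 CPM (median 220.0) in the cortex and 2.86 to 20.6 CPM (median 6.39) in the striatum (log2 -4.98 ± 0.26, adjusted p = 8.94e-09). Grp, gastrin-releasing peptide (-5.02 ± 0.34), and Cort, cortistatin (-3.57 ± 0.14), were much lower genes, at 3.3 ± 0.961 CPM and 2.59 ± 0.714 CPM in the cortex. Receptors for these peptides went the same way, with 14 of 22 higher in the cortex and 6 in the striatum. The cholecystokinin receptor gene Cckbr was 66.7 ± 4.17 CPM in the cortex and 5.93 ± 0.612 CPM in the striatum (log2 -3.49 ± 0.05, adjusted p = 7.91e-13) and the somatostatin receptor gene Sstr3 25.8 ± 2.33 CPM in the cortex and 2.11 ± 0.475 CPM in the striatum (-3.61 ± 0.11). Galr1, a galanin receptor gene, was higher in the striatum (5.37 ± 0.32) at a low level, 0.763 to 1.48 CPM (median 1.24). Adcyap1r1 was at nearly the same level (-0.02 ± 0.05).

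Receptors of other modulators were mixed as families and often extreme as single genes. In the adenosine system 7 of 10 genes were higher in the striatum and 1 in the cortex. Nt5e, the surface enzyme that makes adenosine from AMP, was at 22.9 ± 4.68 CPM in the striatum and 4.24 ± 0.317 CPM in the cortex (2.42 ± 0.09), and the uptake gene Slc29a1 differed by 1.04 ± 0.08. Of the adenosine receptors' FPKM, 75.1% ± 2.1 was Adora2a in the striatum and 94.6% ± 1.58 Adora1 in the cortex. Cnr1, the cannabinoid receptor CB1, was higher in the striatum (424 ± 73.6 CPM in the striatum and 144 ± 17.5 CPM in the cortex, log2 1.55 ± 0.07, adjusted p = 3.34e-09). The other genes of the endocannabinoid list went the other way: 8 of 10 were higher in the cortex, led by Faah, which breaks down anandamide (-2.17 ± 0.06), and Plcb1 was the second gene higher in the striatum (0.22 ± 0.08). The Plcb1 call was lost without the animal of striatal library 2, 3, 4, 6, 7 or 8 (0.20 to 0.22, adjusted p of 0.0615 to 0.0718). Of the serotonin receptors 5 of 12 were higher in the striatum and 6 in the cortex. Htr1b was at 67.6 ± 8.01 CPM in the striatum and 7.1 ± 1.29 CPM in the cortex (log2 3.26 ± 0.08, adjusted p = 1.51e-11), Htr1d differed by 3.98 ± 0.23 and Htr4 by 3.22 ± 0.16, all higher in the striatum. Htr2c was higher there too, at 59.1 to 95.9 CPM (median 72.3) in the striatum, with a larger SE (2.21 ± 0.33). Adrenergic and histamine receptors were higher in the cortex in 7 of 11 genes, with Adra1d at -3.12 ± 0.25, and in the striatum in 3, with Adra2c at 2.00 ± 0.08 and Adra2b at 4.79 ± 0.27. The orphan receptors stood at 10 and 9 of 22, beside 31.2% and 31.6% of all genes tested. Gpr101 (4.53 ± 0.20) and Gpr139 (5.04 ± 0.21) joined Gpr6 on the striatal side.

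Receptors for glutamate and GABA were measured in both tissues and differed in single subunits and in the summed level of a list. The sum of the metabotropic glutamate receptors was 585 to 742 CPM in the striatum and 366 to 428 CPM in the cortex, and that of the GABA and glycine receptors was 2112 to 2542 CPM against 2873 to 3356 CPM. These ranges did not overlap, as was so for most of the 63 lists, while those of the NMDA receptors did. Metabotropic receptors were higher in the striatum in 5 of 7 genes. Grm5, the main group I receptor of projection neurons, was at 362 ± 43.1 CPM in the striatum and 166 ± 13 CPM in the cortex (1.12 ± 0.06) and Grm4 at 78.8 ± 5.36 CPM in the striatum and 23.5 ± 2.56 CPM in the cortex (1.75 ± 0.07). Grm2, a presynaptic autoreceptor of corticostriatal axons, was 39.3 to 54.1 CPM (median 46.6) in the cortex and 1.02 to 4.37 CPM (median 1.49) in the striatum (log2 -4.51 ± 0.23, adjusted p = 6.92e-09). Of the AMPA and kainate receptors and their auxiliary subunits 8 of 19 were higher in the striatum and 9 in the cortex, with the auxiliary genes Cacng4 (2.60 ± 0.07) and Cnih3 (-2.42 ± 0.11) at either end. Among NMDA receptor genes Grin1, the obligatory subunit, was not called (473 ± 27.5 CPM in the striatum and 504 ± 56.1 CPM in the cortex, log2 -0.09 ± 0.06, adjusted p = 0.222), and Grin2a was higher in the cortex (-1.34 ± 0.16). GABA and glycine receptors stood at 9 and 9 of 20. Gabra3 was higher in the cortex (-1.75 ± 0.06) and Gabrq in the striatum (2.06 ± 0.22). The GABA-B subunits parted: Gabbr1 was 1.16-fold higher in the striatum (0.21 ± 0.03) while its partner Gabbr2 was 4.31-fold higher in the cortex (393 ± 14.9 CPM in the cortex and 93.3 ± 21.9 CPM in the striatum, log2 -2.11 ± 0.10, adjusted p = 4.43e-09). Their ranges did not overlap in either gene.

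Potassium channel genes were higher in the cortex more often than in the striatum. Of 57 tested, 36 were higher in the cortex and 16 in the striatum (median -0.62). The largest differences were in Kcnj6, a channel that G proteins open (18.8 ± 4.17 CPM in the cortex and 1.35 ± 0.57 CPM in the striatum, log2 -3.80 ± 0.26, adjusted p = 8.9e-08), in the background channel gene Kcnk4 (-3.76 ± 0.20) and in Kcnh7 (-2.67 ± 0.07) on the cortical side, and in the voltage-gated Kcna5 on the striatal side (20.7 ± 2.99 CPM in the striatum and 1.56 ± 0.748 CPM in the cortex, 3.77 ± 0.22). Kcnk1 (-0.01 ± 0.04) and the astrocytic Kcnj10 (-0.04 ± 0.09) were not called. Sodium and HCN channels stood at 8 of 15 in the striatum and 6 in the cortex. Scn4b, the beta subunit of resurgent sodium current, was 1377 to 1972 CPM (median 1788) in the striatum and 131 to 178 CPM (median 139) in the cortex (log2 3.54 ± 0.09, adjusted p = 2.67e-11). It made up 61.1% ± 2.55 of the beta subunits' FPKM in the striatum and 7.48% ± 0.593 in the cortex. Calcium channels and stores stood at 13 and 11 of 28. Ryr3 was at 277 ± 24.6 CPM in the striatum and 30.1 ± 6.19 CPM in the cortex (3.22 ± 0.09) and Ryr1 at 132 ± 22.1 CPM in the striatum and 22 ± 4.87 CPM in the cortex (2.60 ± 0.10), and per length Ryr3 held 78% ± 3.74 of the ryanodine receptors in the striatum, where Ryr2 held 69.3% ± 5.08 in the cortex. The low-threshold channels changed places likewise, Cacna1h (2.05 ± 0.10) holding 54.3% ± 3.58 in the striatum and Cacna1g (-1.97 ± 0.22) 56.6% ± 2.11 in the cortex.

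Genes of vesicle release were higher in the cortex in most cases. Of 38 tested, 28 were higher in the cortex and 9 in the striatum (median -0.57), and the summed level of the list was 16671 to 18458 CPM in the cortex and 9997 to 11714 CPM in the striatum. Stx1a, a syntaxin of the fusion machinery, was 329 to 364 CPM (median 342) in the cortex and 28.5 to 41.4 CPM (median 30.8) in the striatum (log2 -3.41 ± 0.07, adjusted p = 7.39e-12). The calcium sensors Doc2a (-3.55 ± 0.19) and Doc2b (3.56 ± 0.07) were mirror images, as 85.1% ± 2.85 of their FPKM was Doc2a in the cortex and 94.6% ± 2.15 Doc2b in the striatum. The priming factor gene Unc13c was 245 to 419 CPM (median 369) in the striatum and 31.5 to 47.9 CPM (median 36.3) in the cortex (log2 3.23 ± 0.11, adjusted p = 1.75e-10). Calcium-binding proteins and calmodulin kinases leaned to the cortex, 17 of 32 against 9. Within the NECAB proteins Necab2 was higher in the striatum (3.15 ± 0.14), Necab3 in the cortex (-3.06 ± 0.07) and Necab1 was not called (0.06 ± 0.07). The visinin-like genes Ncald (-2.54 ± 0.07) and Vsnl1 (-2.54 ± 0.06) were higher in the cortex.

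On the postsynaptic side, 9 of 22 scaffold genes were higher in the striatum and 10 in the cortex, beside 31.2% and 31.6% of all genes tested. Ptpn5, the striatal-enriched phosphatase STEP, was at 734 ± 68.6 CPM in the striatum and 187 ± 8.84 CPM in the cortex (log2 1.97 ± 0.05, adjusted p = 1.3e-11). Shank1 (-2.16 ± 0.19), Dlgap1 (-2.02 ± 0.05) and Homer2 (-1.71 ± 0.10) were higher in the cortex. Per length Shank3 held 67.1% ± 4.45 of the Shank genes in the striatum against 25.9% ± 1 in the cortex, and Dlgap3 held 53.9% ± 5.67 of the SAPAP genes against 26% ± 3.33. Both are scaffolds of corticostriatal synapses. In Ras, Rap and kinase C signalling 11 of 30 genes were higher in the striatum and 12 in the cortex. Rasgrp2 was 269 to 349 CPM (median 311) in the striatum and 19 to 29.6 CPM (median 21.1) in the cortex (log2 3.83 ± 0.08, adjusted p = 6.35e-12). Rasd2, the small GTPase Rhes, was 837 ± 70.8 CPM in the striatum and 81.3 ± 6.53 CPM in the cortex (log2 3.36 ± 0.07, adjusted p = 5.08e-12), and Prkch differed by 3.38 ± 0.05. Their ranges were far apart, whereas Rasgrp1 (0.04 ± 0.05) and Rasgrf1 (-0.04 ± 0.05) were not called.

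Activity-linked and trophic genes were called in both directions. Bdnf, the neurotrophin that cortical axons deliver to the striatum, was 20 to 36.5 CPM (median 28.9) in the cortex and 0.537 to 2.06 CPM (median 0.774) in the striatum (log2 -4.86 ± 0.17, adjusted p = 2.77e-10). Of the 25 immediate-early genes 15 were higher in the cortex, 2 in the striatum and 8 in neither (median -0.53). Fos was 8.82 to 39.2 CPM (median 18.6) in the cortex and 2.46 to 9.5 CPM (median 3.95) in the striatum, with overlapping ranges (-2.10 ± 0.19), and Junb (0.04 ± 0.12) and Jund (0.04 ± 0.09) were not called. Of the neurotrophin list 7 of 21 genes were higher in the striatum and 10 in the cortex. Gdnf, a trophic factor for dopamine neurons, was 4.57 to 6.74 CPM (median 4.95) in the striatum and 0 to 0.214 CPM (median 0.143) in the cortex (log2 5.35 ± 0.26, adjusted p = 4.14e-09). The receptor gene Ntrk3 was not called (0.01 ± 0.06), but passed without the animal of striatal library 1 (0.08, adjusted p = 0.0466). Guidance molecules and cadherins stood at 23 and 34 of 62, from Slitrk6 (3.83 ± 0.15) to Cdh12 (-2.17 ± 0.12). Genes of the perineuronal matrix stood at 5 and 6 of 12, and the link protein gene Hapln4 was higher in the cortex (-1.89 ± 0.14).

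Retinoid handling leaned to the striatum, with 11 of 17 genes higher there and 3 in the cortex. Rxrg was 114 to 182 CPM (median 127) in the striatum and 1.78 to 4.97 CPM (median 2.86) in the cortex (log2 5.61 ± 0.20, adjusted p = 3.08e-10), and the binding protein gene Crabp1 was at 6.51 ± 0.852 CPM in the striatum and 0.182 ± 0.0911 CPM in the cortex (5.14 ± 0.21). Aldh1a3, a synthesis enzyme, was higher in the cortex at a low level (1.38 ± 0.468 CPM, -2.46 ± 0.29).

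The kynurenine pathway is the target of the study's compound. Ido1, the gene of its first enzyme, had the largest difference of the list. It was 17.6 to 26.9 CPM (median 21.3) in the striatum and 0.234 to 0.802 CPM (median 0.411) in the cortex (log2 5.55 ± 0.17, adjusted p = 1.23e-10). Its ranges were far apart, and all 8 animals were higher in the striatum. Kmo, the target of the inhibitor, was below the filter, at 0.635 CPM at most in the striatum and 0.228 CPM at most in the cortex. Of the 11 tested genes 3 were higher in the striatum, 3 in the cortex and 5 in neither. Kyat3, which makes kynurenic acid, differed by 0.75 ± 0.10 and the amino acid transporter gene Slc7a8 by -0.53 ± 0.04. Ido2 (0.16 ± 0.09) and Got2 (0.01 ± 0.03) were not called.

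Metabolic and housekeeping lists are given beside the 62.8% of all genes tested that were called. In oxidative phosphorylation 22 of 29 genes were not called, and the median was 0.05. Of the proteasome 14 of 25 were not called, with 9 higher in the cortex and 2 in the striatum. Glycolysis had 13 of 22 genes higher in the cortex and 6 in the striatum, the entry enzyme gene Hk1 by -0.64 ± 0.04 and the lactate dehydrogenase gene Ldha by -0.50 ± 0.06. Cholesterol synthesis was the most uniform of these groups: 21 of 23 genes were higher in the cortex, 0 in the striatum and the median was -0.48. Hmgcs1, which acts early in the pathway, was at 309 ± 18.5 CPM in the cortex and 182 ± 12.3 CPM in the striatum (log2 -0.76 ± 0.04, adjusted p = 2.34e-08). The 2 genes not called were Ebp (-0.09 ± 0.05) and Srebf2 (-0.11 ± 0.05), the latter the transcription factor that drives the others. Ebp passed without the animal of striatal library 1 (-0.11, adjusted p = 0.0431) and Srebf2 without that of library 6 or 7 (-0.13 in both). Of the circadian clock 7 of 21 genes were higher in the striatum and 9 in the cortex. Dbp, an output gene with a strong daily rhythm, was at 149 ± 21.7 CPM in the striatum and 70.5 ± 7.2 CPM in the cortex (1.07 ± 0.06), and Cry2 was not called (0.00 ± 0.04). The time of dissection is not given in the sources used here.

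Htt, the gene mutated in Huntington's disease, was 128 to 213 CPM (median 198) in the striatum and 190.0 to 240.0 CPM (median 223) in the cortex. The ranges overlapped, and it was slightly higher in the cortex (log2 -0.22 ± 0.09, adjusted p = 0.0426). That call was lost without the animal of striatal library 2, 3, 5, 6 or 7 (-0.23 to -0.20, adjusted p of 0.0639 to 0.106), and under 11 of 18 alternatives in all. Of 19 genes of huntingtin and its partners 5 were higher in the striatum, among them Rasd2 and Hap1 (1.18 ± 0.12), and 8 in the cortex, among them Hdac4 (-1.01 ± 0.07). Among abundant noncoding RNAs Miat was higher in the cortex (950.0 ± 159 CPM in the cortex and 160.0 ± 38.3 CPM in the striatum, log2 -2.58 ± 0.15, adjusted p = 2.13e-08) and Neat1 in the striatum (0.73 ± 0.05). Rian was not called (0.05 ± 0.03).

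Myelin and microglial genes were higher in the striatum, and astrocyte genes were called in both directions. All 18 myelin genes were higher in the striatum (median 1.03), which contains bundles of myelinated axons. Mobp, a myelin protein gene, was at 1796 ± 179 CPM in the striatum and 796 ± 136 CPM in the cortex (log2 1.18 ± 0.07, adjusted p = 2.91e-08), and Klk6 differed by 2.39 ± 0.09. The summed level of the list was 10196 to 14322 CPM in the striatum and 5120 to 8217 CPM in the cortex. Of the oligodendrocyte precursor genes 9 of 10 were higher in the striatum (median 0.43), Pdgfra by 0.17 ± 0.05. Of the microglial genes 17 of 18 were higher in the striatum by small steps (median 0.42), from P2ry12 (0.23 ± 0.06) to C1qa (0.53 ± 0.09), and Fcrls was not called (-0.05 ± 0.05). Astrocyte genes stood at 6 higher in the striatum, 7 in the cortex and 7 in neither (median 0.00). Aqp4, the water channel of their endfeet, was not called (0.06 ± 0.05), Slc4a4 was higher in the striatum (0.92 ± 0.07) and the connexin gene Gjb6 in the cortex (-0.70 ± 0.07). Of the vessel genes 14 of 18 were not called, Pecam1 and Kdr among them (0.00 ± 0.06 and 0.01 ± 0.06).

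Markers of neighbouring tissue were measured beside these results, because dissection can carry it over. Slc17a7 in the striatum was on average 2.21% of its cortical level and Tbr1 1.8%, while in the cortex Drd2 was at 0.826% and Six3 at 0.511% of their striatal levels. Striatal markers in the cortex were highest in cortical libraries 4 and 8. The part of carried-over tissue in the small differences was not tested. Prkcd, a kinase C gene abundant in the thalamus, was 14.1 to 165 CPM (median 36.5) in the striatum and 8.13 to 11.1 CPM (median 9.87) in the cortex (log2 2.08 ± 0.35, adjusted p = 0.000232). The highest value was in striatal library 5, which was also highest in Slc17a6 (55.5 CPM) and in the thalamic factor Tcf7l2 (6.54 to 27.8 CPM (median 9.13) over the 8 striatal libraries). Over the 12 genes of the thalamus and septum list, the summed level was 93.7 to 421 CPM in the striatum and 103 to 136 CPM in the cortex, with 4 genes higher in the striatum and 3 in the cortex. Of the 12 tested genes of choroid plexus and ependyma 10 were higher in the striatum and 1 in the cortex. The summed level of that list was 45.6 to 105 CPM in the striatum and 18.7 to 30.3 CPM in the cortex. Clic6, a chloride channel gene of the choroid plexus, was 14.5 to 22.8 CPM (median 17.1) in the striatum and 0.491 to 2.65 CPM (median 1.01) in the cortex (log2 3.95 ± 0.26, adjusted p = 5.38e-08). Ttr, the thyroid hormone carrier that defines choroid plexus, was 5.84 to 55.8 CPM (median 27.4) in the striatum and 4.97 to 16 CPM (median 10.3) in the cortex, with overlapping ranges, and Folr1 was not called (0.17 ± 0.21). Meningeal and fibroblast genes were higher in the cortex in 8 of 13 cases, and their summed level was 270.0 to 1069 CPM in the cortex and 274 to 396 CPM in the striatum. Ptgds, a prostaglandin synthase of the meninges, was 210.0 to 836 CPM (median 540.0) in the cortex and 186 to 290.0 CPM (median 225) in the striatum (log2 -1.03 ± 0.26, adjusted p = 0.00476). Slc22a6, a meningeal transporter gene, was 2.05 to 11.4 CPM (median 7.23) in the cortex and 1.03 to 2.78 CPM (median 1.74) in the striatum (-1.92 ± 0.27). Of the subventricular and dividing cells list 5 of 10 genes were higher in the striatum, Mki67 (1.43 ± 0.13) and Top2a (1.10 ± 0.16) among them, and 4 in the cortex, with Dcx at -1.16 ± 0.09. The summed level of that list was higher in the cortex, at 123 to 140 CPM against 84.8 to 116 CPM in the striatum. For hippocampus and piriform area 6 and 2 of 9 genes were called. Of the pituitary hormone genes, Gh reached 43.4 CPM in cortical library 8 and 17.0 CPM in striatal library 5, both from 1 animal. The next highest libraries were at 3.27 CPM in the cortex and 8.88 CPM in the striatum, and its medians were 0.429 CPM in the striatum and 0.281 CPM in the cortex (log2 0.17 ± 0.42, adjusted p = 0.742). Without that animal Gh was called higher in the striatum (0.93, adjusted p = 0.0266). Of the blood genes 4 of 5 were not called.

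**Figure D5:**
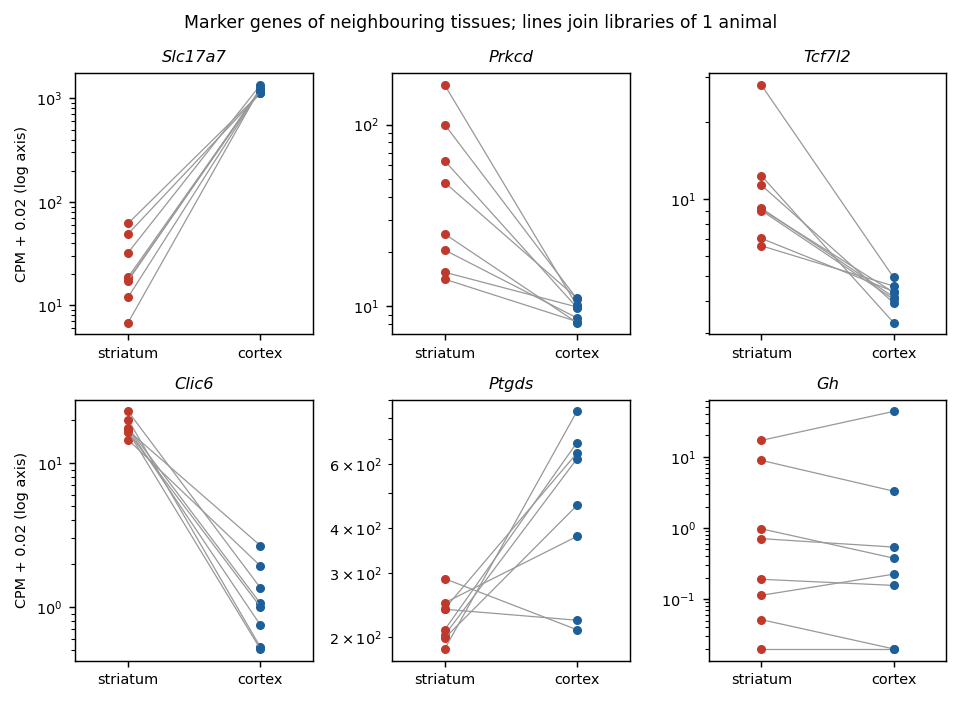
CPM + 0.02 on a log axis of 6 marker genes in striatum (red) and cortex (blue) of the 8 animals, with lines joining the 2 libraries of 1 animal. Striatal Prkcd runs from 14.1 to 165 CPM and cortical Ptgds from 210.0 to 836 CPM, while Clic6 is higher in the striatum in every animal.

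The striatal libraries were slightly more concentrated. The 100 highest genes held 20% ± 1.22 of the counts in the striatum and 18.3% ± 0.536 in the cortex, higher in the striatum in 8 of 8 animals (exact two-sided sign-flip test over all sign patterns, p = 0.00781, the smallest it can give). Genes detected per library were counted by CPM without TMM scaling. Those at 1 CPM or more numbered 14809 ± 83.1 and 14759 ± 90.3, and no difference was found beyond the spread of the within-animal differences (exact sign-flip test, p = 0.148). The direction turned with the threshold: at 0.1 CPM the striatum minus cortex difference was -122 genes (0 of 8 animals higher, exact p = 0.00781) and at 5 CPM it was 69.5 (7 of 8, exact p = 0.0156). By length the highest entries of both tissues were nuclear copies of mitochondrial sequence, led by Gm29216, and their reads cannot be told apart from those of the mitochondrial genes they copy. The 8 such copies held 5.65% to 9.29% of a striatal and 4.39% to 5.96% of a cortical library. Animals of 1 tissue varied less than the tissues differed: beside the median absolute difference of 0.279 given above, the median SD of log2 CPM over 8 animals was 0.162 in the striatum, 0.124 without library 1, and 0.150 in the cortex.

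The regional profile was not found to differ between the sexes. With the tissue by sex term in edgeR's quasi-likelihood test, 0 of 17051 genes were called, the smallest adjusted p was 0.916, and 565 genes (3.31%) had an unadjusted p under 0.05. DESeq2 called 1 gene. With 4 females and 4 males this does not show that the profiles are alike.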

How the data were processed

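Total RNA from flash-frozen right striatum and right cortex was extracted with a miRNeasy kit and sequenced on Illumina instruments, per the labels' protocols. The authors deposited estimated counts and FPKM (fragments scaled to gene length and library size) per gene. CASAVA 1.8.2 and the mouse build mm10 are named in the submitters' processing notes, while for the aligner, quantifier, annotation and strand setting nothing is given in these sources. Of nonzero deposited counts 33.831% were not whole (tolerance 1e-06), so the estimated counts were rounded to whole numbers. Identifiers were matched to GENCODE vM21 for positions and symbols (42462 of 43346). All value columns were tied to a sample by their names.

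Depth, the sum of the counts, was 30475559 to 37036397 per library, and reads without molecular identifiers are not independent molecules. No libraries of a tissue agreed within sampling noise (lowest chi-square per degree of freedom 7.99). The animal code pairs the tissues: deviations from the tissue mean correlated at 0.175 to 0.508 within an animal and at most at 0.185 between animals.

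edgeR 4.0.16 in R 4.3.3 fitted the 16 libraries with animal and tissue as terms, TMM scaling, filterByExpr and its quasi-likelihood test. P-values were adjusted by Benjamini-Hochberg over 17051 genes, with a threshold of 0.05. They set the difference between tissues against its variation from animal to animal, as the animal term takes up the animals' own levels. The code was tested on simulated data. Single values per library were compared by exact sign-flip tests. Alternatives were a fit without the animal block, other size factors, DESeq2 1.42.0, other filters, limma 3.58.1 on log2(deposited FPKM + 0.1) or + 1, each animal left out, each sex alone and genes over 1% of a library removed. Fold changes on the log2(FPKM + pseudocount) scale understate the change of low genes.

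The comparison, the gene lists and the families were chosen with earlier results of these data known. The 63 lists hold 1067 genes, of which 1039 were tested, 22 were below the filter and 6 were not analysed here. Named genes are the 12 largest differences in each direction, up to 4 called and 2 uncalled or small members of each list, the 5 highest genes by FPKM, regional and neighbouring-tissue markers, and family members. Adcy1, Gng3, Gnas, Rgs7, Prkar1a, Adora1, Ryr2, Shank3, Dlgap3 and Ttr were chosen after their values were seen. Genes with near-identical copies or an antisense partner are uncertain, since the counting may split or merge their reads. A few genes that the rule names are not reported here.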

Additional observations from a re-analysis of the deposited data

Results flagged for a closer look

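Each of 440 groups of 8 libraries, which cover the 217 genes named in the text and 3 measures of the library in each tissue, was searched for a highest or lowest library far from the other 7. Such a library was found in 60 groups (13.6%), where chance flags about 1 in 20. Groups share libraries and are not independent. Values are in CPM unless stated. No cause was tested.

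Striatal library 1 held 21 of these. Its 20 and 100 highest genes took 13% and 22.9% of its counts, and the mitochondrial copy Gm29216 stood at 15304. It was the highest for the membrane protein gene Syndig1l (402), the T cell receptor constant region Trbc2 (0.395), Sst (140.0), Nkx2-1 (9.96), Drd5 (5.13), Adra2c (65.7) and Cacng4 (203). The scaffold genes Shank3 (462) and Dlgap3 (644), the early genes Junb (49.6) and Jund (93.4) and the clock output gene Dbp (197) were highest there too. It was the lowest for Gad2 (364), Rgs8 (205), Gabra3 (34.5), Dlgap1 (112), Htt (128) and Pdgfra (57.9).

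Striatal library 5 was the lowest for the projection neuron genes Rgs9 (552) and Pdyn (81.2). It was the highest for Slc17a6 (55.5), Tcf7l2 (27.8), Rorb (40.6), Zic4 (5.17), Gnas (678), Nrn1 (20.6) and Kcnk4 (2.24). Of these, Slc17a6, Tcf7l2 and Zic4, belong to the thalamus and septum list or mark those areas. Striatal library 7 was the highest for the cortical genes Slc30a3 (6.17), Igfn1 (1.9) and Chrm3 (19.5) and for Rian (1011), and the lowest for Mobp (1399).

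Cortical library 4 had the most genes at 1 CPM (14958) and was the highest for 10 genes, all of them higher in the striatum than in the cortex. They were Lhx8 (0.244), Ptpn7 (0.366), Gng7 (126), Penk (69.6), Rxrg (4.97), Maob (30.8), Adcy5 (171), Gnal (242), Tacr1 (3.08) and Htr1d (2.84). Cortical library 5, from the animal of striatal library 1, was the highest for Emx1 (20.1), Slc32a1 (79.3), Kcnk4 (19.4), Hdac4 (93.5) and Klk6 (3.63). It was the lowest for Vip (30.3), Kit (34.5) and Grm5 (138).

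Among the remaining cortical libraries, library 3 was the highest for Chrm5 (0.225) and Chrnb2 (64.3) and library 7 for Rian (963). Library 8 was the highest for Fos (39.2), Ido2 (3.1) and Gh (43.4, against 3.27 in the next).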

How the results depend on the processing

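Of 10708 genes called, 9973 to 11409 were called with each animal left out in turn, with 4988 to 5718 higher in the striatum and 4940 to 5691 higher in the cortex. At 2-fold the same fits gave 1023 to 1054 and 1192 to 1230. Without the pairing by animal, that is, with no replicate block, 10281 genes were called, and 1035 and 1212 at 2-fold. The count was 10693 with RLE size factors, 10271 with DESeq2, 11089 without a filter, 9867 at 1 CPM in 8 libraries, 10400 and 10486 with limma at a pseudocount of 0.1 and 1, 9028 in females, 7597 in males and 10698 without genes over 1% of a library. The 2-fold counts fell to 469 and 583 with limma on log2(FPKM + 1), which shrinks the change of low genes.

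The tissue by sex term gave 1 gene with DESeq2. The difference in genes detected, 50.4 more in the striatum at 1 CPM, was -122 at 0.1 CPM (p = 0.00781) and 69.5 at 5 CPM (p = 0.0156, exact sign-flip tests), and the cause was not tested. The top-gene shares kept their direction and call at 20 and 1000 genes.

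Of the 178 genes named in the text that were called, 11 lost the call under at least 1 of the 18 alternatives: Htt, Plcb1, Pvalb, Slc17a6, Slc18a2, Maob, Pdgfra, P2ry12, Prkar1a, Prkg1 and Ttr. Of the others, 11 gained one somewhere, and Gh (0.17) was -0.95 in females alone, where it was called. No other named gene changed direction between the main fit and an alternative while called in at least 1 of the pair. Low genes such as Lhx8 and Chrm5 rest on few counts in the lower tissue, which limits their fold change. Label tag and tissue cannot be told apart in WT mice.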

Other observations

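By gene class, 4789 of 14822 tested protein-coding genes were higher in the striatum and 4900 in the cortex. Antisense genes stood at 136 and 137 of 528 and long intergenic noncoding RNA genes at 114 and 119 of 436. Processed pseudogenes stood at 54 and 22 of 376. Their reads can come from the parent gene, and the difference between classes was not tested.

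The label tag L5 is shared by 1 striatal and 4 cortical libraries of R6/2 mice given the inhibitor, so that tissue can be described there within a tag, without replicates in the striatum. Of the 259 called genes that the naming rule chose, 247 lay on the same side of the cortical median as in WT mice. Of the 185 that differed by at least 2-fold in WT mice, 182 lay on the same side and 172 outside the cortical range. The 3 not on the same side were Lamp5, F5 and Cnr1. The naming rule favours the largest WT differences, which fixes these shares in part, and the same shares over all called genes were not taken. Cnr1 stood at 107 CPM in the striatal library against 127 to 162 CPM in the cortical ones, whereas in WT mice it was higher in the striatum. CPM of the libraries of this tag were taken without TMM scaling. Genotype and treatment differ from the WT mice, and their part was not tested.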
